A study of Mus musculus with 3 samples.

Results

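The genes described here are 30 genes of the Ras-ERK pathway, with its feedback inhibitors and its target genes, out of 31744 gene symbols in the deposited matrices. They were taken by symbol from a list that covers Ras, RAF, MEK and ERK genes, phosphatases and Sprouty and Spred inhibitors that ERK signalling induces, ERK target genes, ligands and receptors, and all 30 were found in the files. They were followed in 3 libraries of single-cell RNA sequencing made while mouse embryonic fibroblasts were converted directly into motor neurons. All cells carried the Hb9::GFP reporter and had received LNI, a cassette of mLhx3, mNgn2x3HA and Isl1 joined by 2A peptides, together with DDRR, which holds HRAS(G12V), an activated Ras, and p53DD. Times are in dpi, as the labels write them. At 14 dpi 1 library came from Hb9::GFP+ sorted cells grown with supplements and 1 from Hb9::GFP+ sorted cells grown without them. The supplements were BDNF, CNTF, GDNF, FGF and RepSox, an inhibitor of a TGF-beta receptor kinase. The library from 4 dpi came from cells with supplements that were sorted for low CellTrace-FarRed, a dye diluted by division. Cells of 4 dpi were released with trypsin and cells of 14 dpi with papain and DNase. Both cassettes were present in every group, so no library shows the pathway without the activated HRAS.

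The Ras-ERK cascade carries signals from growth factor receptors into the nucleus. A receptor such as that of FGF or EGF loads a Ras protein (such as HRAS or NRAS) with GTP, Ras recruits a RAF kinase (BRAF), RAF activates the MEK kinases (MAP2K1, MAP2K2), and MEK activates ERK (such as MAPK3). Active ERK induces its own inhibitors, and the messenger RNA of these feedback genes is widely used as a readout of pathway output. In neurons the pathway acts downstream of neurotrophic factors in survival and axon growth.

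Each group held 1 library, so no difference between groups has a replicate check, no test was possible and no p-value is given. Levels are counts of unique molecular identifiers (UMIs) summed over cells and expressed as CPM, the count in every 1000000 UMIs, and every interval is an exact 95% interval that covers counting error only. After filtering, 2314 cells with supplements, 3716 without supplements and 4492 of 4 dpi were kept, with a median of 14380.5, 10664 and 2312.5 UMIs per cell. The libraries shared 3 to 5 cell barcodes in pairs. The 15 neuron markers summed to 10426 CPM with supplements, 6403 CPM without and 1920 CPM at 4 dpi, and none of them was at 0. The 15 fibroblast markers summed to 2900, 4146 and 7801 CPM and were all above 10 CPM in all 3 libraries. Markers of macrophages, endothelium, glia, muscle and epithelium summed to at most 40.2 CPM per list over all kept cells. Fewer cells of a type and less RNA per cell cannot be told apart in sums over a whole library.

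Of the 30 genes, 23 reached 10 CPM in all 3 libraries and 26 in at least 1. The other 4, Il11, Epha2, Fgfr2 and Fgfr3, stayed under 10 CPM in each. The highest level was found with supplements at 14 dpi for 9 genes, without supplements for 13 and at 4 dpi for 8.

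**Figure D1:**
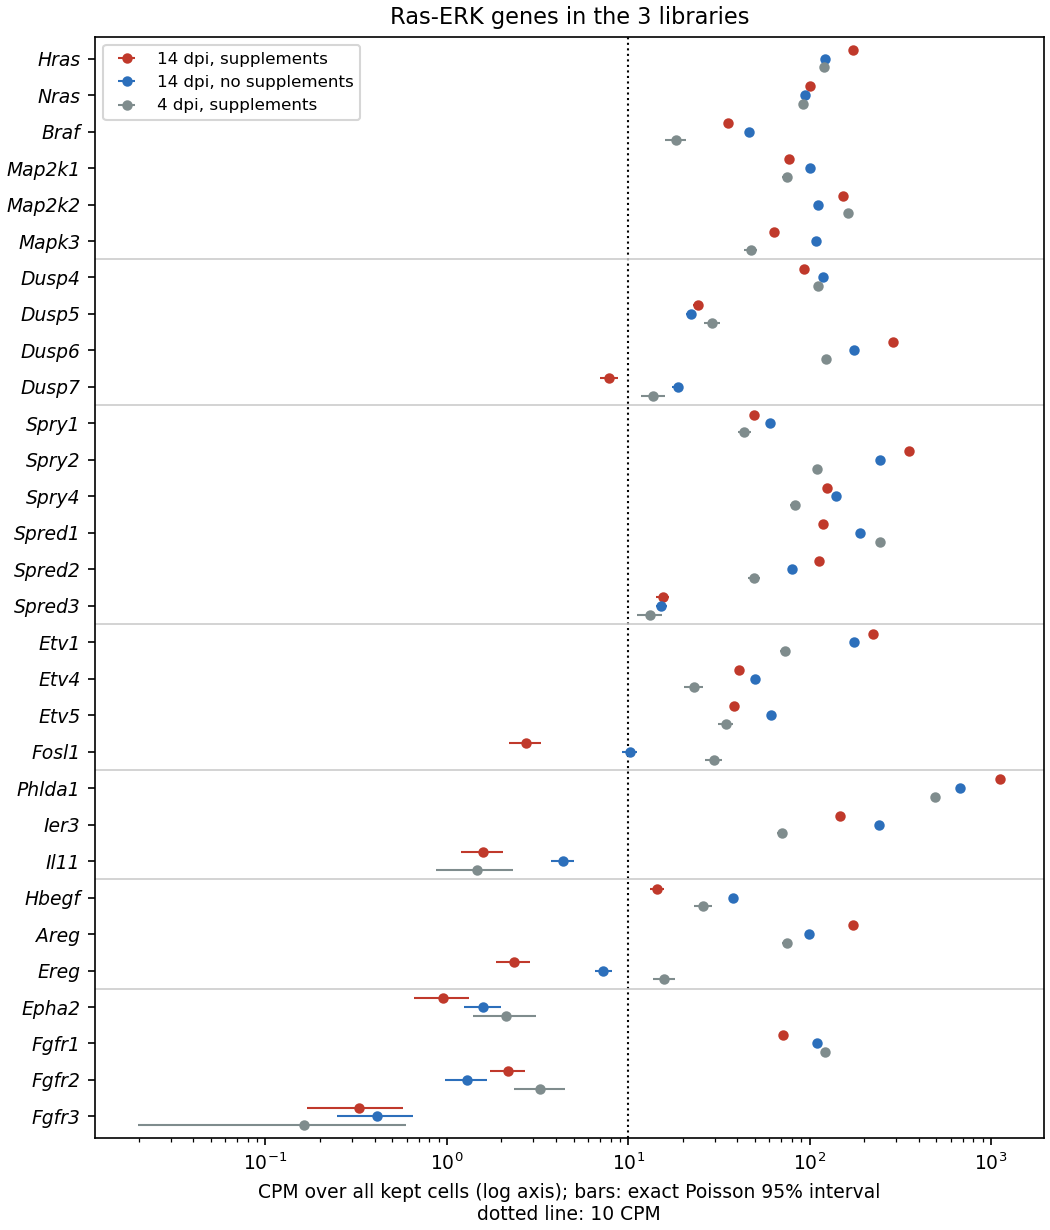
Level of each of the 30 genes in the 3 libraries, as CPM over all kept cells on a log axis, with exact Poisson 95% intervals. Grey lines separate the cascade, phosphatases, Sprouty and Spred genes, transcription factors, other targets, EGF receptor ligands and receptors. Fosl1 runs from 2.72 CPM with supplements to 29.6 CPM at 4 dpi, while Nras stays between 92.5 and 101 CPM.

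In the cascade itself, Hras (ENSMUSG00000025499) stood at 174 CPM in the library with supplements (169 to 178). It stood at 121 CPM in the library without them (118 to 124) and at 120 CPM in that of 4 dpi (114 to 126). The counts do not separate an introduced HRAS transcript from the mouse gene. In that order of libraries, Nras had 101, 94.8 and 92.5 CPM, the flattest of the 6 cascade genes. The MEK genes differed from each other. Map2k1 was highest without supplements (76.9, 101 and 74.9 CPM) and Map2k2 lowest there (153, 111 and 164 CPM). Braf, a RAF kinase, had 35.5, 46.4 and 18.4 CPM, and Mapk3 (ENSMUSG00000063065), which encodes ERK1, had 63.4, 109 and 47.4 CPM. Both were thus highest in the 14 dpi library without supplements and lowest at 4 dpi.

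Among the ERK phosphatases, Dusp6 (ENSMUSG00000019960), which acts on ERK in the cytoplasm, had 289 CPM with supplements (283 to 294), 175 CPM without (171 to 179) and 124 CPM at 4 dpi (118 to 130). Its cytoplasmic relative Dusp7 (ENSMUSG00000053716) had 7.86, 18.7 and 13.8 CPM. The nuclear phosphatases differed less between libraries, with 93.2, 119 and 112 CPM for Dusp4 and 24.3, 22.1 and 29.0 CPM for Dusp5. Of the Sprouty genes, whose proteins block the path from receptors to ERK, Spry2 (ENSMUSG00000022114) had 354, 245 and 110 CPM, Spry4 had 124, 139 and 83.0 CPM and Spry1 had 49.5, 60.6 and 43.8 CPM. The related Spred proteins bring the Ras inhibitor neurofibromin to the membrane. Spred1 (ENSMUSG00000027351) had its highest level at 4 dpi (119, 190 and 246 CPM) and Spred2 its highest with supplements (113, 80.1 and 49.5 CPM). Spred3 had 15.5, 15.3 and 13.1 CPM, with overlapping intervals for the 14 dpi libraries.

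The ETS transcription factors of the PEA3 group are classic ERK and FGF targets. Etv1 (ENSMUSG00000004151) had 225, 175 and 73.3 CPM, Etv4 had 40.6, 50.3 and 22.9 CPM and Etv5 had 38.3, 61.6 and 34.5 CPM. All 3 were lowest at 4 dpi, Etv5 by no more than counting error against the library with supplements, and Etv1 was the one with its highest level in the presence of supplements. Fosl1 (ENSMUSG00000024912), which encodes the AP-1 protein FRA1, ran in the other order, with 2.72 CPM with supplements (2.21 to 3.31), 10.2 CPM without (9.28 to 11.2) and 29.6 CPM at 4 dpi (26.6 to 32.8). Phlda1 (ENSMUSG00000020205), an induced protein with a pleckstrin homology-like domain, had 1121, 675 and 489 CPM. The immediate early gene Ier3 had 148, 242 and 70.6 CPM. Il11, a cytokine gene, had 1.58, 4.36 and 1.48 CPM.

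The ligands of the EGF receptor did not share an order. Areg (amphiregulin, ENSMUSG00000029378) stood at 174 CPM with supplements (170 to 178), 99.2 CPM without (96.3 to 102) and 75.4 CPM at 4 dpi (70.6 to 80.4). Hbegf (heparin-binding EGF-like growth factor) stood at 14.4, 37.6 and 25.9 CPM and Ereg (epiregulin) at 2.34, 7.31 and 15.8 CPM. Areg was therefore highest in the library in which both other ligands were lowest. Among the receptors, Fgfr1 (ENSMUSG00000031565) stood at 71.0, 110 and 121 CPM. The ephrin receptor gene Epha2 stood at 0.952, 1.59 and 2.13 CPM and Fgfr2 at 2.17, 1.29 and 3.28 CPM. Fgfr3 stood at 0.326, 0.414 and 0.164 CPM, the last from 2 UMIs. Fgfr1 was thus the FGF receptor of the list with levels above 10 CPM in these cells.

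Promoter sequence is shown for 4 of the genes. Areg and Braf hold a match to a motif named below, and Dusp6 and Spry2 do not. The windows are the 250 bases before the start of the gene in RefSeq on GRCm38.p6, which is not the GRCm39 build named for the counts. They lie at chr5:91139349-91139598 (+ strand) for Areg, chr6:39725464-39725713 (- strand) for Braf, chr10:99262981-99263230 (+ strand) for Dusp6 and chr14:105896820-105897069 (- strand) for Spry2. None of the 4 overlapped a gene of the GENCODE annotation of that build. Capitals mark the cAMP response element TGACGTCA, and all else is in lower case.
Areg: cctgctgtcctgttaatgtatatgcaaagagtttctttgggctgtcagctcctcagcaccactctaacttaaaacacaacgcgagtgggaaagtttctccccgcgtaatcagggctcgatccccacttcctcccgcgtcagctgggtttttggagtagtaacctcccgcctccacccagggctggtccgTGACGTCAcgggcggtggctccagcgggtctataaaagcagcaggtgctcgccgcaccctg
Braf: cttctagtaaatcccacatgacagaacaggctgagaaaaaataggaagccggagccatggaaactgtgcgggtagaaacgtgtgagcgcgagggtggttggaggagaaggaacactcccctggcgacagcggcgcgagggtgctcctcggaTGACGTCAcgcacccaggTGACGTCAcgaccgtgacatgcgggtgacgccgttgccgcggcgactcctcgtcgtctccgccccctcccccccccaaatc
Dusp6: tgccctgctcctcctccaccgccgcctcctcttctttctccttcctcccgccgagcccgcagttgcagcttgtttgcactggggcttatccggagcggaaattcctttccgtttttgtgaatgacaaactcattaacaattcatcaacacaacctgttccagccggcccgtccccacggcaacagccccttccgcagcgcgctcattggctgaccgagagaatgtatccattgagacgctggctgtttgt
Spry2: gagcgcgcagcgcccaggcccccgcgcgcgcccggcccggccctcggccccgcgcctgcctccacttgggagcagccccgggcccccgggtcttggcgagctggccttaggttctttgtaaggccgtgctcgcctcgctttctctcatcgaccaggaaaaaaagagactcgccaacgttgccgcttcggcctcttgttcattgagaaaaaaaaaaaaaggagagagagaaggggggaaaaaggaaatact

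Windows were found for 21 of the 30 genes, 25 windows in all. Mapk3, Dusp4, Spry4, Etv4, Phlda1, Fosl1, Hbegf, Ereg and Fgfr1 had no entry. Both strands were searched for TGACGTCA, for the ETS-type sequence CCGGAA, for the AP-1 site TGANTCA and for the CArG box bound by serum response factor. TGACGTCA was found in Areg, Braf and Epha2, and in 1.55% of all 32807 windows of that length. In Areg 53 bases lie between the match and the start, and Braf holds 2 matches. CCGGAA was found in Hras and Map2k1 (12.0% of all windows), the AP-1 site in Il11 (6.75%) and the CArG box in Dusp5 (1.47%). The motifs as spelled here were not in the Dusp6 or Spry2 window. Shorter or variant forms, such as GGAA for ETS factors, were not searched. A match describes the sequence and does not show that a factor binds there.

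The 14 dpi libraries share the sort, the dissociation and the stage, and their comparison asks how the pathway genes differed with supplements that included an FGF. With supplements, the feedback genes Dusp6, Spry2 and Spred2, the targets Etv1 and Phlda1, the ligand Areg and the cascade genes Hras and Map2k2 were higher. Mapk3, Braf, Map2k1, Dusp4, Dusp7, Spred1, Etv5, Fosl1, Ier3, Hbegf and Fgfr1 were lower. The feedback inhibitors Spry1 and Spry4 and the target Etv4 were lower by smaller amounts, at log2 ratios of -0.29, -0.17 and -0.31. A gene was counted as different at 2-fold or more, provided it had at least 10 CPM on one side, and 25 of the 30 genes could be compared. None of them was 2-fold higher, where 4.79% of all 9374 genes compared were, and 3 were 2-fold lower, where 5.18% of all genes were. The median log2 ratio of the 25 genes was -0.29, beside 0.03 for all genes. The interval lay above 0 for 10 of them and below 0 for 14.

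The 3 genes that were 2-fold lower were Fosl1, with a log2 ratio of -1.91 (-2.23 to -1.59), Hbegf with -1.38 (-1.53 to -1.24) and Dusp7 with -1.25 (-1.45 to -1.06). For Fosl1 and Dusp7 the level with supplements lay under 10 CPM. The highest ratios were those of Areg at 0.81 (0.76 to 0.87), Phlda1 at 0.73 (0.71 to 0.75) and Dusp6 at 0.72 (0.68 to 0.76). Dusp6 was 1.65-fold higher with supplements and Spry2 1.45-fold, at a log2 ratio of 0.53. Members of one family went apart. Etv1 had 0.36 and Etv5 -0.69, Spred2 had 0.50 and Spred1 -0.68, and Map2k2 had 0.47 and Map2k1 -0.39. Mapk3 had -0.78 (-0.85 to -0.71).

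The share of cells with a neuronal marker differed between these libraries. Cells were thinned to 1000 UMIs each and split by detection of Stmn2, a growth-associated microtubule regulator, or Tubb3, a neuronal tubulin. Of the cells with that many UMIs, 58.8% (56.8 to 60.9) had either marker with supplements, 34.5% (33.0 to 36.1) without and 16.9% (15.8 to 18.0) at 4 dpi. Cells with either marker are called Stmn2/Tubb3 cells below. The intervals of the shares do not cover the random draw of the thinning. With supplements, another draw gave 1419 cells with either marker and 864 with neither, in place of 1343 and 940. It gave 1270 and 2424 cells without supplements and 769 and 3610 at 4 dpi. A UMI can also come from free RNA, and its part in the split was not tested. Among cells with a collagen UMI, at a median of 14199.5, 10599 and 2269 UMIs, the share with either marker was 38.4% (34.9 to 42.1), 20.3% (18.5 to 22.1) and 14.4% (13.3 to 15.7) in the same libraries. Among cells with no collagen UMI, at a median of 14665, 10825 and 2593 UMIs, it was 68.2%, 50.4% and 25.8%. By full counts, cells with neither marker still had 151 CPM of Stmn2 with supplements and 57.1 CPM without. The split numbered 1343 and 940 cells with supplements and 1275 and 2419 without, each time with the Stmn2/Tubb3 cells first. An Stmn2 UMI was held by 783 of the 1343 and by 462 of the 1275, and the rest held Tubb3 alone.

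**Figure D2:**
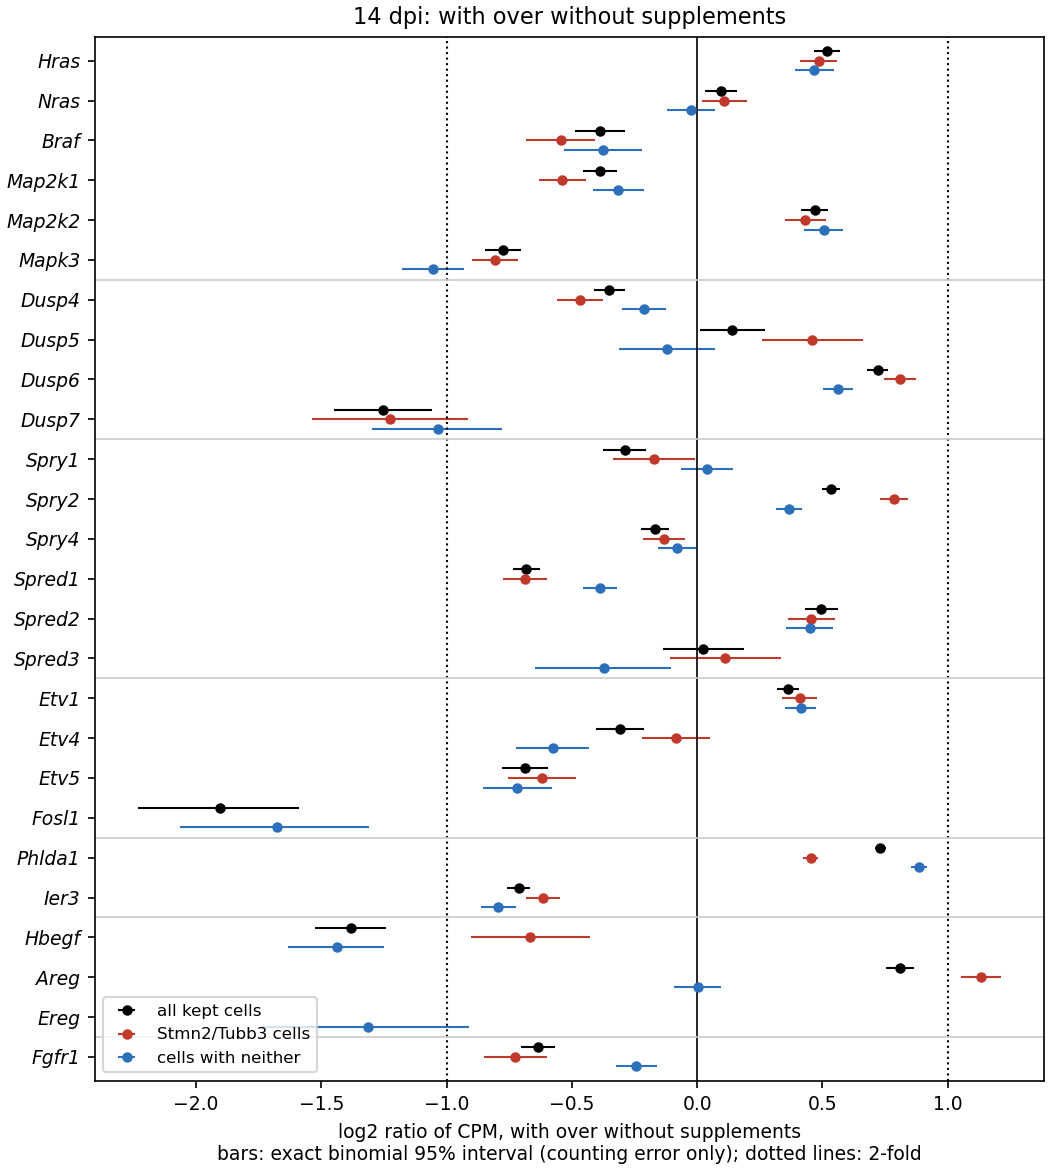
Log2 ratio of CPM with over without supplements at 14 dpi, for genes at 10 CPM or more on one side, in all kept cells (black), Stmn2/Tubb3 cells (red) and cells with neither marker (blue). Bars are exact binomial 95% intervals. Areg lies at 1.13 in Stmn2/Tubb3 cells and at 0.00 in cells with neither.

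Of the genes compared in both kinds of cell, Areg had the ratios that lay farthest apart. In Stmn2/Tubb3 cells it stood at 226 CPM with supplements (220 to 232) and 103 CPM without (98.3 to 108), a log2 ratio of 1.13 (1.05 to 1.21). In cells with neither marker it stood at 97.1 and 96.9 CPM, a log2 ratio of 0.00 (-0.09 to 0.09). The intervals of these ratios do not overlap. The share of Stmn2/Tubb3 cells that held Stmn2 differed between the libraries, and its part in the Areg ratio was not tested. The ratio in Stmn2/Tubb3 cells lay between 0.78 and 1.37 over 13 other settings and was 2-fold in 9 of them. With another random draw of the thinning it was 0.93. In cells with neither marker the ratio was less settled, from -0.87 with the split on unthinned counts to 0.51 with the split on Tubb3 alone, and -0.40 without cells that hold a collagen UMI.

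In Stmn2/Tubb3 cells 24 of the genes could be compared. Areg was the 1 gene at least 2-fold higher with supplements (4.38% of all genes were) and Dusp7 the 1 gene 2-fold lower (5.85% of all genes were). Dusp7 had 6.14 against 14.4 CPM there. Dusp6 had 309 against 176 CPM (0.81, 0.75 to 0.87), and Spry2 had 361 against 210 CPM (0.79, 0.73 to 0.84). Mapk3 had 75.5 against 132 CPM (-0.81, -0.90 to -0.72).

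In cells with neither marker 26 genes could be compared, none was 2-fold higher (5.07% of all genes were) and 5 were 2-fold lower (4.33% of all genes were). They were Fosl1 at 4.74 against 15.2 CPM, Hbegf at 17.9 against 48.6 CPM, Ereg at 4.06 against 10.1 CPM, Mapk3 at 45.6 against 94.5 CPM and Dusp7 at 10.4 against 21.4 CPM. Phlda1 had its larger ratio in these cells, 0.89 (0.85 to 0.92) against 0.45 (0.42 to 0.48) in Stmn2/Tubb3 cells, and Spry2 its smaller one, 0.37 (0.32 to 0.42) against 0.79. The median ratio of the genes was -0.11 in Stmn2/Tubb3 cells, beside -0.05 for all genes, and -0.23 in the other cells, beside 0.07.

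Hras, Map2k2, Spred2 and Etv1 had nearly the same ratios in both kinds of cell. Hras had 0.48 and 0.47, Map2k2 had 0.43 and 0.51, Spred2 had 0.46 and 0.45 and Etv1 had 0.41 and 0.41. Within Stmn2/Tubb3 cells the neuron markers, Stmn2 and Tubb3 among them, still summed to 12716 CPM with supplements and 9994 CPM without. The fibroblast markers summed to 1546 and 1484 CPM there, with 13 of 15 above 10 CPM in both. In cells with neither marker the fibroblast markers summed to 4916 and 5734 CPM. The cycling markers summed to 837 and 821 CPM there. The part of these differences in cell makeup in the ratios was not tested for most genes. For Hbegf, leaving out cells with a collagen UMI (Col1a1, Col1a2 or Col3a1 after thinning) gave -0.91 over all cells and -0.85 in cells with neither marker, in place of -1.38 and -1.44. The ratio of Ereg in cells with neither marker was -0.57 where the split used unthinned counts, in place of -1.32.

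The comparison of 14 dpi with 4 dpi, both with supplements, sets Hb9::GFP+ sorted cells beside cells sorted for low CellTrace-FarRed. It uses the same 14 dpi library as the comparison above. Sort, dissociation and depth differ together with the stage, and they cannot be told apart. At 14 dpi the feedback genes Spry2, Dusp6 and Spred2, the targets Etv1, Phlda1 and Ier3 and the ligand Areg were at least 2-fold higher, and Fosl1, Ereg and Spred1 at least 2-fold lower. Of 26 genes compared, 7 were higher and 3 lower, where 15.4% and 10.1% of 9415 genes were. The median log2 ratio was 0.21, beside 0.11 for all genes.

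**Figure D3:**
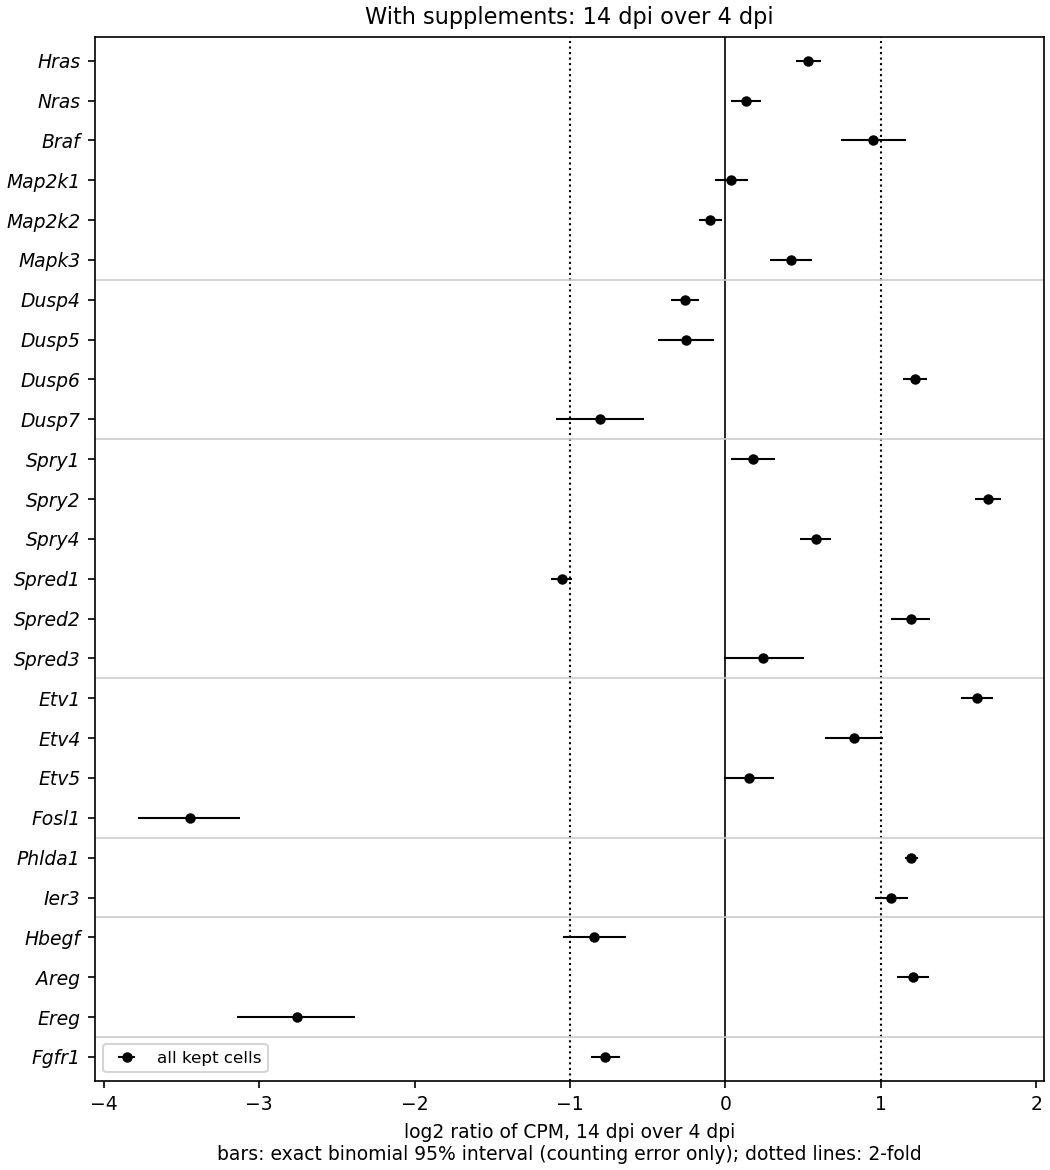
Log2 ratio of CPM at 14 dpi over 4 dpi, both with supplements, over all kept cells, with exact binomial 95% intervals. Spry2 lies highest at 1.69 and Fosl1 lowest at -3.44.

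Spry2 had the highest ratio, at 1.69 (1.61 to 1.77), a 3.22-fold difference, followed by Etv1 at 1.62 (1.52 to 1.72). Dusp6 had 1.22 (1.14 to 1.30), Areg 1.21 (1.11 to 1.31), Phlda1 1.20 (1.16 to 1.24) and Spred2 1.19 (1.07 to 1.32). Ier3 had 1.07 (0.96 to 1.17), an interval that includes a 2-fold difference, and 0.95 once ratios were centred on the median of all genes. At the other end Fosl1 had -3.44 (-3.78 to -3.12) and Ereg -2.76 (-3.14 to -2.38), and both lay under 10 CPM at 14 dpi. Spred1 had -1.05 (-1.12 to -0.98). The Etv genes formed a range, with 0.82 for Etv4 and 0.15 for Etv5 beside the 1.62 of Etv1.

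None of the 6 cascade genes of the list was 2-fold apart between the stages. Braf had 0.95 (0.75 to 1.16), Hras 0.53 (0.45 to 0.62), Mapk3 0.42 (0.29 to 0.55), Nras 0.13, Map2k1 0.04 (-0.07 to 0.15) and Map2k2 -0.10 (-0.17 to -0.02). Fibroblast markers summed to 2900 CPM at 14 dpi and 7801 CPM at 4 dpi, all 15 above 10 CPM in both. Cycling markers summed to 515 and 1613 CPM, with 12 and 14 of the 14 above 10 CPM. The part of these differences in the gene ratios was not tested, except that leaving out cells with a collagen UMI left all 7 of the higher and all 3 of the lower genes at least 2-fold apart, Ier3 at 1.00, and gave Hbegf -1.35 in place of -0.84. Without cells with a UMI of a cycling marker, the ratio of Ier3 was 0.88.

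Within a library, cells of the same culture, sort and run can be compared. The split by Stmn2 or Tubb3 asks where in each library the pathway genes were found. It is not the same contrast in each. At 4 dpi it numbered 738 and 3641 cells, and 715 of the 738 held Tubb3 without Stmn2. Neuron markers, which include Stmn2 and Tubb3, summed to 3557 CPM in those 738 cells and 1572 CPM in the others of 4 dpi. Part of that difference follows from the split itself, with Tubb3 at 908 against 104 CPM. In cells with neither marker at 14 dpi the neuron markers summed to 7019 CPM with supplements and 4258 CPM without, sums that the split lowers. Mapk3, Nras, Phlda1, Spred2, Dusp6, Map2k1 and Spred3 were higher in Stmn2/Tubb3 cells in all 3 libraries, by amounts that for Map2k1 with supplements, for Dusp6 without them and for Nras, Map2k1 and Spred3 at 4 dpi lay within counting error. Fgfr1, Hbegf, Spred1, Spry1 and Dusp7 were lower in all 3, with Spry1, Hbegf and Dusp7 within counting error at 4 dpi. Of the 24 genes that could be compared in every library, these 7 and 5 had 1 sign and 12 did not. Of those with 1 sign, Mapk3 and Spred1 kept it under every other setting. The other genes had the opposite sign in at least 1 library and setting, as Phlda1 did with -0.09 with supplements and Dusp6 with -0.36 without. For Fgfr1 and Dusp7 the setting was the split of 4 dpi cells on Stmn2 alone.

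**Figure D4:**
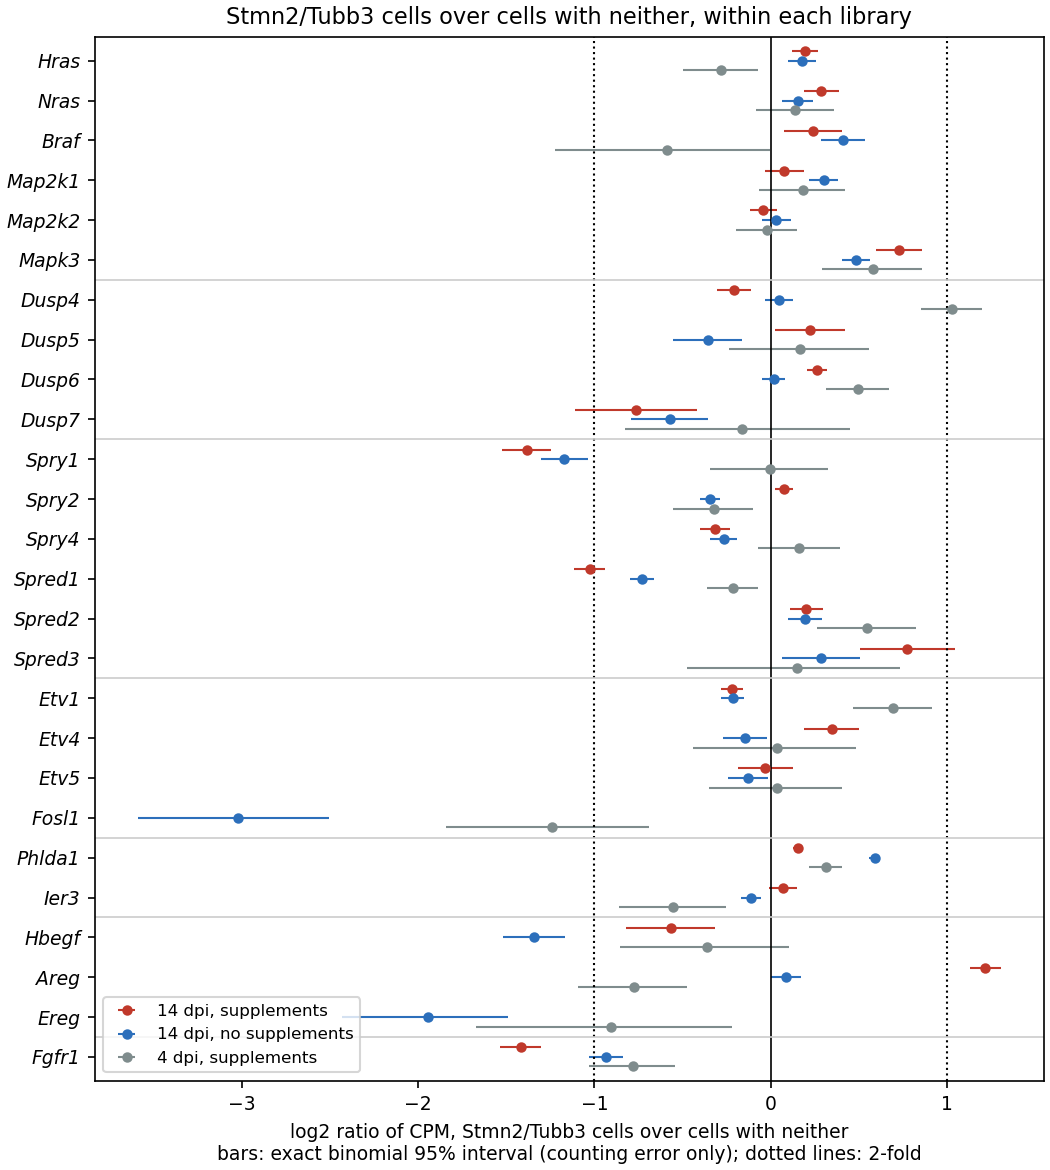
Log2 ratio of CPM in Stmn2/Tubb3 cells over cells with neither marker, within each of the 3 libraries, with exact binomial 95% intervals. Fgfr1 lies left of 0 in all 3 libraries, and Areg lies at 1.22, 0.09 and -0.78.

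Mapk3 was higher beyond counting error in each library. It stood at 75.5 against 45.6 CPM with supplements (log2 ratio 0.73, 0.60 to 0.86), at 132 against 94.5 CPM without (0.48, 0.40 to 0.56) and at 65.3 against 43.7 CPM at 4 dpi (0.58, 0.29 to 0.86). Phlda1 had 0.16, 0.59 and 0.31 and Spred2 had 0.20, 0.20 and 0.55. Fgfr1 stood at 42.5 against 113 CPM with supplements (-1.42, -1.53 to -1.30), 70.2 against 134 CPM without (-0.93, -1.03 to -0.84) and 75.8 against 130 CPM at 4 dpi (-0.78, -1.03 to -0.54). Spred1 had -1.03, -0.73 and -0.21. Spry1 had -1.38 and -1.17 at 14 dpi and 0.00 at 4 dpi.

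With supplements 24 genes were compared. Areg was 2-fold higher in Stmn2/Tubb3 cells, where 3.95% of all genes were, and Spry1, Spred1 and Fgfr1 were 2-fold lower, where 5.37% of all genes were. Without supplements 26 genes were compared, none was 2-fold higher (8.07% of all genes were) and 4 were 2-fold lower (5.69% of all genes were). These were Fosl1 at 1.87 against 15.2 CPM (-3.02, -3.59 to -2.50), Ereg at 2.63 against 10.1 CPM (-1.94, -2.43 to -1.49), Hbegf at 19.2 against 48.6 CPM (-1.34, -1.52 to -1.17) and Spry1 at 34.0 against 76.4 CPM (-1.17, -1.30 to -1.04). At 4 dpi 26 genes were compared. Dusp4 was 2-fold higher (2.02% of all genes were) and Fosl1 2-fold lower (2.55% of all genes were). The median ratios of the genes were 0.08, -0.12 and 0.01, beside 0.03, 0.12 and 0.03 for all genes.

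Dusp4 at 4 dpi stood at 193 CPM (175 to 213) in Stmn2/Tubb3 cells and 94.7 CPM (88.8 to 101) in cells with neither, a log2 ratio of 1.03 (0.85 to 1.20). At 14 dpi the same ratio was -0.21 with supplements and 0.05 without. Over the other settings it ran from -0.39 to 0.01 with supplements and from -0.62 to 0.81 without. At 4 dpi it ran from 0.57 to 1.16, which overlaps the range without supplements. The 4 dpi value lies at the 2-fold line. It was 0.99 with ribosomal protein and mitochondrial genes left out of the total, 0.98 with another random draw of the thinning and 0.57 without cells with a collagen UMI. Fosl1 at 4 dpi had 13.9 against 32.8 CPM (-1.24, -1.84 to -0.69). Its ratio was -2.09 without cells that hold a collagen UMI and -0.63 with the split on unthinned counts. It was 1.14 with the split on Stmn2 alone, where the marked cells are the few that hold an Stmn2 UMI, 11 with and 12 without Tubb3.

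Fibroblast markers moved with this split in every library. They summed to 1546 against 4916 CPM with supplements, 1484 against 5734 CPM without and 4653 against 8386 CPM at 4 dpi. Of the 15, between 13 and 15 were above 10 CPM in every set of cells and none was at 0. Cycling markers summed to 299 against 837 CPM and 244 against 821 CPM at 14 dpi, and to 1790 against 1583 CPM at 4 dpi. Cells were therefore also classed by both kinds of marker. Without cells that hold a collagen UMI, Spry1 had -1.17 with supplements and -0.77 without, Fgfr1 had -1.04 with supplements, and the ratios of Fosl1 and Ereg without supplements stayed at least 2-fold lower, Ereg from levels under 10 CPM on both sides. Spred1 with supplements had -0.80 and Hbegf without supplements -0.90. Areg had 0.95 with supplements and -0.82 without.

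In this finer grouping Spred1, Fgfr1 and Spry1 were lower with a neuronal marker and higher with a collagen. Spred1 in cells with supplements stood at 213 CPM in collagen cells without a neuronal marker, 136 CPM in cells with neither kind of marker, 104 CPM in cells with both and 78.2 CPM in cells with a neuronal marker alone. Without supplements the same classes held 250, 177, 166 and 120 CPM. Fgfr1 had 152, 81.5, 52.5 and 39.7 CPM with supplements and 158, 92.3, 94.0 and 58.7 CPM without. Spry1 had 101, 60.5, 41.9 and 26.8 CPM with supplements and 92.4, 48.2, 45.9 and 28.2 CPM without. All 3 genes were thus highest in collagen cells and lowest in cells with a neuronal marker alone.

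**Figure D5:**
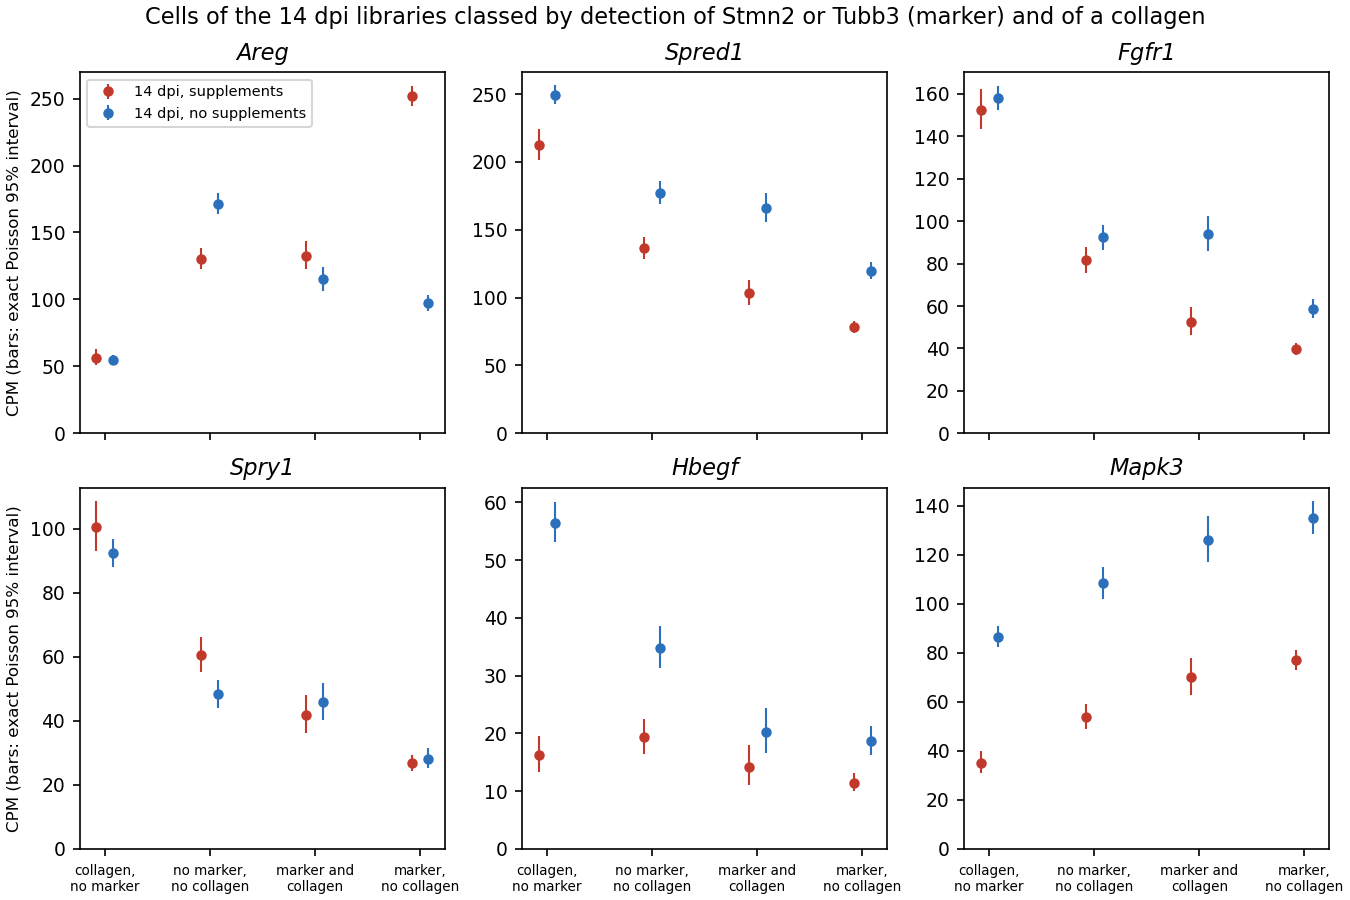
CPM of 6 genes, picked after their values were seen, in cells of the 14 dpi libraries classed by detection of Stmn2 or Tubb3 (marker) and of a collagen after thinning, with exact Poisson 95% intervals. Areg with supplements runs from 56.6 CPM in collagen cells without a marker to 252 CPM in cells with a marker and no collagen.

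Areg and Mapk3 ran the other way. With supplements Areg stood at 56.6, 130, 133 and 252 CPM in these classes, and at 316 CPM in cells with Stmn2 but no Tubb3 against 102 CPM in cells with Tubb3 but no Stmn2. Without supplements it stood at 54.7, 171, 115 and 97.2 CPM, so its highest class there held neither kind of marker. Split on Tubb3 alone, the ratio of Areg between the 2 sides of the library with supplements was 0.48 in place of 1.22, and on unthinned counts it was 2.10. Mapk3 had 35.2, 54.0, 70.1 and 76.9 CPM with supplements and 86.7, 108, 126 and 135 CPM without. It was lower with supplements in each of the 4 classes.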

How the data were processed

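Single cells of 3 libraries, 1 per group, were measured with 10x Genomics 3′ v3.1 reagents. UMI counts per gene and barcode were deposited, and per the file headers Cell Ranger 6.1.1 wrote them. The submitters' processing notes name GRCm39 as the build. The calling of cells and the counting of intron reads are not stated in these sources. The files list 31783 features, and features with the same symbol were summed to 31744 symbols. A cell was kept if it had 500 genes or more and no more than 20% of its UMIs from the 13 mitochondrially encoded genes. No doublet caller was run, and the 5% of cells with the most UMIs were left out as an alternative. Libraries were grouped by the labels.

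UMIs were summed over the cells compared and given as CPM with exact Poisson intervals. Log2 ratios carry exact binomial (Clopper-Pearson) intervals on the split of UMIs, which also gave the intervals of shares of cells. A count of 0 was set to 3 counts in a ratio. For the split each cell was thinned to 1000 UMIs without replacement, cells under that depth were left out (31, 22 and 113 cells), and levels came from full counts. Ratios were checked on simulated data. The 30 genes and all lists were chosen with earlier results of these data known. All 30 are named. Of other pathway genes, up to 6 per comparison with the largest log2 ratio among those 2-fold apart are named, plus remaining core genes, of which some are not reported here. In all, 7 comparisons and 15 alternatives were run, of which 1, the removal of cycling cells, was added after seeing the data. Promoter windows came from the RefSeq table on GRCm38.p6. Python 3.11.15, numpy 2.4.6, scipy 1.17.1, pandas 2.3.3 and matplotlib 3.10.9 were used.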

Additional observations from a re-analysis of the deposited data

Results flagged for a closer look

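The ratio of Areg between Stmn2/Tubb3 cells and cells with neither marker differed between libraries. At 14 dpi it was 1.22 in the library with supplements (1.13 to 1.30) and 0.088 in the library without them (0.00 to 0.17). The 4 dpi library had -0.78 (-1.09 to -0.48). These intervals do not overlap, but they cover counting error only, and with 1 library per group the difference was not tested. Over the other settings the Areg ratio ran from 0.48 to 2.10 with supplements, from -0.82 to 0.55 without and from -1.23 to -0.58 at 4 dpi. The range without supplements overlaps each of the others. The ratio of Dusp4 was 1.03 at 4 dpi and -0.21 at 14 dpi with supplements, and that difference was not tested either. Without supplements the Dusp4 ratio was 0.05, and -0.62 to 0.81 over the other settings. That range overlaps the 0.57 to 1.16 of 4 dpi.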

How the results depend on the processing

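The 30 ratios of the genes that were 2-fold apart were recomputed under the alternatives, which gave 325 values. The sign was kept in 324 and the 2-fold difference in 291. The exception in sign was Fosl1 at 4 dpi split on Stmn2 alone, at 1.14. These single ratios apply no floor, while the counts below take genes at 10 CPM or more on one side. Counts of genes 2-fold apart are small, and 43 of their 190 values moved by more than 1.5 times. The cause was not tested unless the setting itself removed cells or genes.

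Over all cells at 14 dpi, the 3 genes lower with supplements became 1 at a floor of 30 CPM, 1 without collagen cells and 5 with no floor. In Stmn2/Tubb3 cells the 1 gene higher became 0 with the split at 2000 UMIs, on unthinned counts or with another seed, 0 with the mean of CPM per cell, and 3 with the split on Stmn2 alone. The 1 gene lower there became 0 at the floor of 30 CPM, 2 on unthinned counts and 3 with no floor. In cells with neither marker the 0 genes higher became 1 on unthinned counts and 1 with no floor. The 5 lower became 3 on unthinned counts, at 2000 UMIs, on Stmn2 alone, on Tubb3 alone, without collagen cells and with the mean per cell, and 2 at the floor of 30 CPM. For 14 over 4 dpi the 3 lower became 1 at the floor of 30 CPM and 5 without collagen cells.

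For the split with supplements, the 1 higher became 0 without collagen cells or on Tubb3 alone and 2 on unthinned counts, and the 3 lower became 8 with no floor. Without supplements the 0 higher became 1 with no floor and 1 on unthinned counts, and the 4 lower became 2 on Stmn2 alone, on Tubb3 alone and at the floor of 30 CPM, and 1 without collagen cells. At 4 dpi the 1 higher became 0 without ribosomal and mitochondrial genes in the total, at 2000 UMIs, with another seed and without collagen cells, and 7 on Stmn2 alone. The 1 lower became 0 on unthinned counts, 2 at 2000 UMIs, 2 without cycling cells, 3 on Stmn2 alone, 4 with another seed and 6 without collagen cells.

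Leaving ribosomal protein and mitochondrial genes out of the total moved the median log2 ratio of all genes from 0.12 to 0.02 in the split without supplements and from 0.03 to -0.07 for supplements over all cells. Depth limits the 4 dpi values most. Fosl1 and Ereg rest on 100 and 86 UMIs with supplements, and Fgfr3 on 2 UMIs at 4 dpi. No interval covers the difference between cultures, sorts or runs.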

Other observations

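Other genes of the pathway were read from 6 lists. With supplements over without at 14 dpi, 59 of 97 could be compared, 3 were 2-fold higher and 7 lower, and the median log2 ratio was -0.12. Over all genes 4.79% were higher and 5.18% lower, with a median of 0.03. Of 18 further ERK targets, 5 were 2-fold lower and 1 higher, against the same shares. Mmp3, a matrix protease, stood at 12.8 against 104 CPM, Emp1 at 48.1 against 160 CPM and the angiogenic factor Vegfa at 39.2 against 106 CPM, while the ephrin receptor Epha4 stood at 11.1 against 3.71 CPM. Vegfa had the same difference in Stmn2/Tubb3 cells (-1.44) and in cells with neither marker (-1.43). Egfr, the receptor for Areg, Hbegf and Ereg, stood at 22.2 against 5.89 CPM in Stmn2/Tubb3 cells and 46.9 against 23.3 CPM in the others. Fgfr4 had at most 0.0816 CPM.

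At 14 over 4 dpi, 11 of 58 were 2-fold higher and 6 lower, close to the 15.4% and 10.1% of all genes. Araf stood at 95.4 against 37.4 CPM, the FGF ligand Fgf9 at 105 against 7.79 CPM, the neurotrophin-3 receptor Ntrk3 at 45.1 against 3.69 CPM and the phosphatases Dusp1 and Dusp8 at 110 against 10.2 and 40.5 against 3.61 CPM. Ret, the signalling receptor for GDNF, stood at 55.0 CPM against 1 UMI at 4 dpi (log2 ratio 9.39, 6.91 to 14.69). Hmga2 stood at 145 against 500 CPM. In the split within libraries Fgf9 was higher in Stmn2/Tubb3 cells in each, at log2 ratios of 1.47, 1.61 and 1.76 in the order with supplements, without and 4 dpi. Mmp3 was lower, at -4.45, -4.06 and -4.68, and so was Egr3, an immediate early transcription factor, at -1.91, -2.72 and -1.69. Both genes lay under 10 CPM in the Stmn2/Tubb3 cells of each library. At 4 dpi those cells held 3 UMIs of Mmp3 (-6.97 to -3.13) and 8 of Egr3 (-2.93 to -0.67).

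The spread of each gene over cells was read after thinning every cell to 1000 UMIs, as the variance over the mean of UMIs per cell, which is near 1 for even sampling. Hras had 1.02, 0.99 and 1.04 in the libraries with supplements, without and of 4 dpi. Areg had 3.16, 2.84 and 2.06, with up to 13 UMIs in a cell, and Phlda1 had 1.80, 1.64 and 1.70. Ier3 had 1.35, 1.42 and 1.53 and Spry2 had 1.35, 1.27 and 1.13. Areg thus had the highest of these values in each library, also in the 4 dpi library where its summed level was lowest. Phlda1, Ier3 and Spry2 lay above 1 in each as well. So did other genes of the list, such as Dusp4 with 1.12, 1.22 and 1.11 and Etv1 with 1.18, 1.15 and 1.14. The values were not corrected for the level of a gene, and no value over all genes was computed.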
